A study of Arabidopsis thaliana with 10 samples.

Results

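The genes described here encode 10 enzymes that break down chlorophyll in Arabidopsis thaliana leaves: NYE1, NYE2, NYC1, NOL, HCAR, PPH, PAO, MES16, CYP89A9 and CLH1. Their rows were found by symbol or synonym among the 33028 rows of each count file, and all 10 passed the filter on low counts that left 21475 genes for testing. NYE2 is listed in the files under its synonym NONYELLOWING 2, and PAO under ACD1, the symbol of its locus in the reference table.

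RNA was sequenced from the fifth and the sixth leaves of 4-week-old plants, grown at 22 °C with a 16 h light and 8 h dark cycle. The transgenic plants overexpressed RanG22V, which the labels call Ran-GTP, or RanT27N, which they call Ran-GDP. Ran is the small GTPase that sets the direction of transport through the nuclear pore. Detached leaves of both lines were taken after 3 days in darkness (D3) or without it (D0), and leaves of the wild type Col were taken at D0. The labelled groups are thus RanG22V D3, RanG22V D0, RanT27N D3, RanT27N D0 and Col D0, with 2 libraries each. The labels name no promoter, no transgenic line number and no separate plants for the 2 libraries of a group. The p-values therefore reflect how far these libraries lie apart, and that spread may be technical. Col leaves were not sampled after darkness among the libraries used here, so no comparison sets a line against the wild type in the dark.

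For 8 of the 10 libraries the name in the file header differs from the label of the sample. The pair labelled RanG22V D3 has the header RanT27N day 3. The pair labelled RanG22V D0 has the header RanG22V day 3. The pair labelled RanT27N D3 has the header RanT27N day 0, and the pair labelled RanT27N D0 has the header RanG22V day 0. Only the Col D0 pair carries the same name in both places. Groups follow the labels throughout. What each comparison would be by the headers is stated where the 10 members are compared. The same reading applies where a comparison is used again for other genes. By the headers, the 2 pairs labelled RanG22V are the darkened leaves of the 2 lines and the 2 pairs labelled RanT27N are their leaves before darkness.

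Chlorophyll breakdown dismantles the pigment in senescing leaves, where free chlorophyll would be phototoxic. Chlorophyll b is first reduced to chlorophyll a, the magnesium and the phytol tail are removed, and the ring is then opened by an oxygenase, which ends the green colour. The colourless products are modified and stored in the vacuole. Many genes of this route are switched on in leaves kept in the dark or treated with ethylene, abscisic acid or jasmonate.

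Library totals ran from 14187505 to 24496672 counts. Ribosomal RNA rows held 8.19% of counts in the second library labelled RanG22V D0 and 16.78% to 24.54% in the others. Plastid protein-coding rows held 1.226% to 2.882% of counts in the pairs labelled RanG22V and 3.104% to 4.987% in the other pairs. All 4 mesophyll markers (RBCS1A, LHCB2.1, CA1 and LHCB1.3) were detected in every library, and they did not move alike. Their summed level was 5137 and 4424 CPM in the pair labelled RanG22V D3, and 801 and 299.6 CPM in the pair labelled RanG22V D0. It was 9124 and 10170 CPM in the pair labelled RanT27N D3, 8482 and 8952 CPM in the pair labelled RanT27N D0, and 4887 and 17150 CPM in Col D0, which the pair labelled RanG22V D3 overlapped. RBCS1A, the small subunit of Rubisco, stood at 78.3 to 509.6 CPM in the pairs labelled RanG22V and at 2581 to 5356 CPM in the others, and CA1, a carbonic anhydrase, at 0.856 to 4.79 CPM and 153.6 to 1053 CPM. LHCB2.1, a light-harvesting protein, stood at 908 and 1331 CPM in the pair labelled RanG22V D3 and at 151.7 and 79.0 CPM in RanG22V D0. In the other 3 pairs LHCB2.1 differed between the libraries of a pair, with 26.05 and 1094 CPM in RanT27N D3, 13.3 and 1166 CPM in RanT27N D0, and 10.7 and 739 CPM in Col D0. Both phloem markers were detected throughout, and SUC2 stood at 19.3 to 31.1 CPM in the pairs labelled RanG22V and at 172 to 365.5 CPM in the others, while APL overlapped between them at 11.97 to 20.4 CPM and 9.15 to 21.03 CPM. Of the epidermal markers, ATML1 stood at 16.4 to 22.3 CPM in the pairs labelled RanG22V and at 33.0 to 73.9 CPM in the others, and PDF1 was at 0 in every library. The 3 guard cell markers summed to 39.43 to 60.09 CPM. Of 4 root markers, RHD6 and EXPA7 were at 0 throughout, BGLU23 stood at 6.34 to 21.4 CPM, and COBL9 was counted only in the pair labelled RanG22V D0, at 0.502 and 0.814 CPM. Of 4 flower markers, AP1 was at 0 throughout and PI stood at 4.15 and 3.45 CPM in the pair labelled RanG22V D0 and at 0 to 0.448 CPM elsewhere. AP3 and AG reached at most 0.191 and 0.785 CPM, and the 2 seed markers summed to at most 0.416 CPM. LHCB1.3 stood at 2756 to 3718 CPM in RanG22V D3 and at 140.6 to 434.3 CPM in RanG22V D0, against 687.1 to 11930 CPM in Col D0. RBCS1A, CA1, SUC2 and ATML1 were thus low in the pairs in which most chlorophyll genes below were high. LHCB2.1, LHCB1.3 and APL were not low in the pair labelled RanG22V D3. The part of these markers in the differences of the chlorophyll genes was not tested. In bulk leaf RNA, fewer cells of a type and less RNA per cell cannot be told apart.

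Stretches of sequence before the starts of the genes are shown for 3 members. The G-box (CACGTG) and the ABRE core (ACGTGNC) are bound by bHLH and bZIP factors that act in darkness and abscisic acid signalling. Both motifs are found in the 250 bases before the starts of 2 of the 10. The 250 bases before each annotated gene start were read from the TAIR10.1 genome, whose nuclear chromosomes are those of the submitters' TAIR10. Both strands were searched, and the 2 motifs can overlap. The G-box is present in 6.49% of 27443 such windows and the ABRE core in 8.57%. Among the members, NYE2 and NOL hold both motifs, on shared letters. Of the W-box, bound by WRKY factors, only the letters TTGACC were searched, and these are in 12.2% of windows and in 0 of the 10. Other forms of the W-box, such as TTGACT, were not searched, so members may hold them. A match is a description of letters and shows no binding. Capitals mark the motif letters, and every line reads 5′ to 3′ on the strand of its gene. The NYE2 window is at chr4:7155900-7156149 on the plus strand, the NYE1 stretch of 185 bases, cut back to the part that lies outside the exons of a neighbouring gene, is at chr4:12018644-12018828 on the minus strand, and the NOL site of 30 bases is at chr5:1434741-1434770 on the plus strand. The NOL site also lies in an annotated exon of the neighbour AT5G04895.
NYE2: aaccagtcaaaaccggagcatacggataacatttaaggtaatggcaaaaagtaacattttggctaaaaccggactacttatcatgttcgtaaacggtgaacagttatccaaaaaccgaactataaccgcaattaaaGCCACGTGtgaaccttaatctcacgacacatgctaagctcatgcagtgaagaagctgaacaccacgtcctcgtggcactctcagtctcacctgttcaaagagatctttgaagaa
NYE1: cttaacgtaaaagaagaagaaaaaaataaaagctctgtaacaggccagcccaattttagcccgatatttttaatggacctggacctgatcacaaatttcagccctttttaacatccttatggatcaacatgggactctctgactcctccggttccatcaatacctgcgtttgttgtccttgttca
NOL: cttatatgccGCCACGTGGCatttaactct
The NYE2 letters begin at position -114 from the gene start. NYE1, which holds neither motif in its 250 bases, and NYE2 are paralogs on the same chromosome. Sequence further from the gene starts was not searched. Their longest identical run in the gene sequences is 21 bases. For NYC1 and NOL, which encode related proteins, the longest identical run is 14 bases.

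Levels are given as CPM, the counts relative to the library size after TMM scaling. A library value is compared here only with other values of the same gene, since gene lengths were not used. Log2 fold changes carry their standard error (SE), and a gene was called at a Benjamini-Hochberg adjusted p below 0.05 over all genes tested in edgeR's quasi-likelihood test. How many of all genes had their highest or lowest group mean in a given pair was not counted, so the orders given here only describe the members. Of the 10 members, 9 had their highest or lowest group mean in the pair labelled RanG22V D0. The 8 members that were highest there were NYE1, NYE2, NYC1, NOL, PPH, PAO, MES16 and CYP89A9, all with the pair labelled RanG22V D3 next. CLH1 had its lowest mean there, and HCAR had its lowest mean in the pair labelled RanG22V D3.

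**Figure D1:**
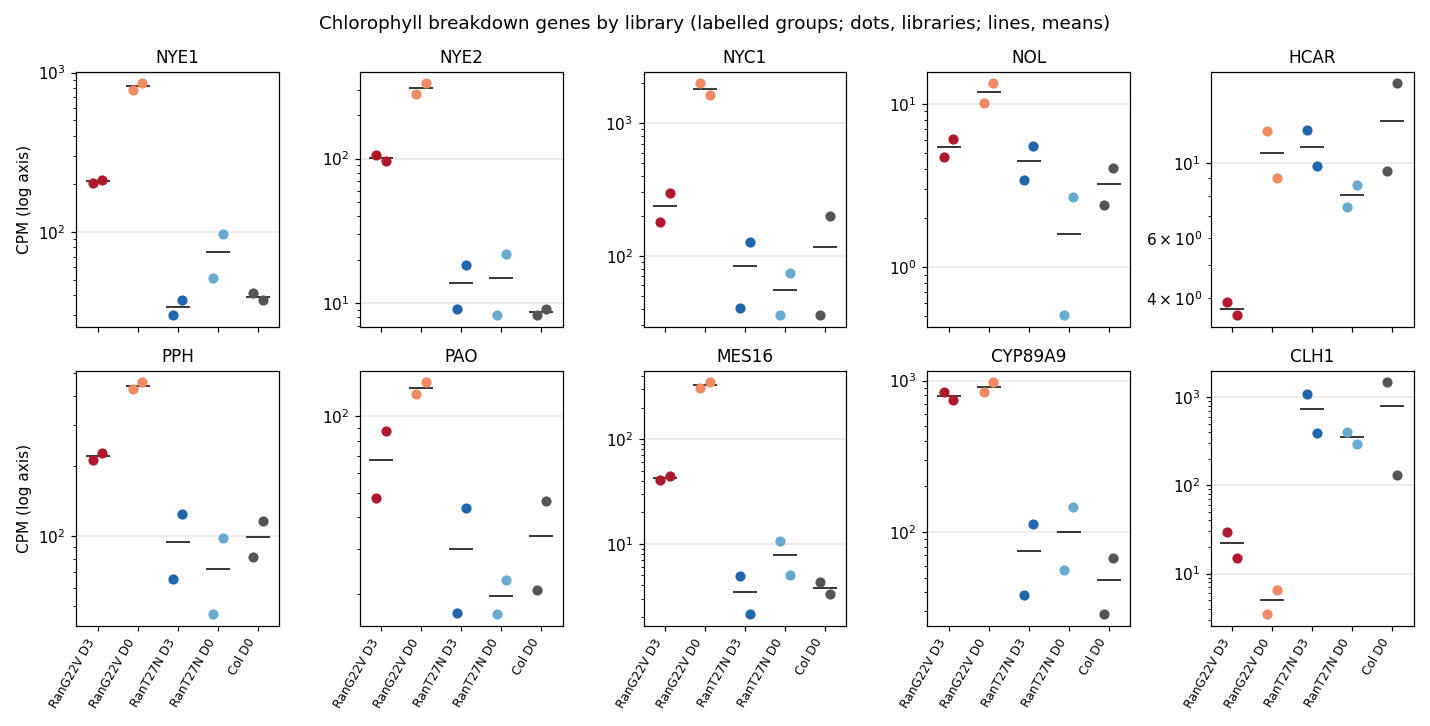
CPM of each of the 10 genes by library, on a log axis, for the 5 labelled groups. Dots are libraries and short lines are the means of the 2 libraries. The pair labelled RanG22V D0 lies highest for 8 genes and lowest for CLH1. HCAR has no such order.

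NYE1 and NYE2 remove the magnesium from chlorophyll a, the step that commits the pigment to breakdown, and leaves that lack NYE1 stay green. NYE1 had 204 and 211 CPM in the pair labelled RanG22V D3, 781 and 854 CPM in RanG22V D0, 30.02 and 37.5 CPM in RanT27N D3, 51.6 and 97.2 CPM in RanT27N D0, and 41.2 and 37.1 CPM in Col D0. Both pairs labelled RanG22V lay above every other library, with no overlap between those 2 pairs. Leaves labelled RanG22V D0 had a 20.9-fold higher NYE1 level than Col D0 leaves (log2 fold change 4.38 ± 0.41, adjusted p = 0.000273). NYE2 stood at 106 and 95.6 CPM in RanG22V D3, at 280.2 and 330.5 CPM in RanG22V D0, at 9.14 and 18.4 CPM in RanT27N D3, at 8.32 and 21.7 CPM in RanT27N D0, and at 8.28 and 9.18 CPM in Col D0. Its order matched that of NYE1 in the top places, while the 3 low pairs overlapped. The log2 fold change of NYE2 between RanG22V D0 and Col D0 was 5.13 ± 0.55, or 34.97-fold (adjusted p = 0.000475).

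NYC1 and NOL are the chlorophyll b reductases that begin the conversion of chlorophyll b to chlorophyll a. NYC1 stood at 178 and 297 CPM in RanG22V D3, at 1987 and 1617 CPM in RanG22V D0, at 40.25 and 128 CPM in RanT27N D3, at 36.1 and 74.8 CPM in RanT27N D0, and at 35.8 and 199 CPM in Col D0. The second Col D0 library exceeded the lower of the libraries labelled RanG22V D3, and replicates within the low groups were far apart. Between RanG22V D0 and Col D0 the NYC1 difference was 3.94 ± 0.88 on the log2 scale (adjusted p = 0.0114). NOL was read at low levels: 4.75 and 6.04 CPM in RanG22V D3, 10.13 and 13.3 CPM in RanG22V D0, 3.43 and 5.50 CPM in RanT27N D3, 0.508 and 2.68 CPM in RanT27N D0, and 2.40 and 4.03 CPM in Col D0. The lowest of these rests on 11 counts and the highest on 278. Libraries labelled RanG22V D0 lay above all others for NOL, and RanG22V D3 overlapped with RanT27N D3.

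HCAR completes the conversion by reducing hydroxymethyl chlorophyll a. HCAR stood at 3.89 and 3.57 CPM in RanG22V D3, at 12.4 and 8.998 CPM in RanG22V D0, at 12.5 and 9.81 CPM in RanT27N D3, at 7.44 and 8.60 CPM in RanT27N D0, and at 9.48 and 17.1 CPM in Col D0. Only the pair labelled RanG22V D3 stood apart, below all 8 other libraries. HCAR was the member with the smallest span, 4.80-fold between its highest and lowest library, against 8.18-fold to 423-fold for the others.

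PPH cuts the phytol tail from pheophytin. PPH stood at 211 and 228 CPM in RanG22V D3, at 427 and 456 CPM in RanG22V D0, at 65.1 and 124 CPM in RanT27N D3, at 46.2 and 97.6 CPM in RanT27N D0, and at 80.9 and 116 CPM in Col D0. The pairs labelled RanG22V did not overlap with any other pair, and the other 3 overlapped among themselves. PAO opens the ring of pheophorbide a at the inner envelope of the chloroplast. PAO stood at 47.6 and 87.5 CPM in RanG22V D3, at 123 and 136 CPM in RanG22V D0, at 16.7 and 43.5 CPM in RanT27N D3, at 16.6 and 22.6 CPM in RanT27N D0, and at 20.65 and 46.6 CPM in Col D0. The higher Col D0 library and the lower library labelled RanG22V D3 were close to each other. The PAO gene overlaps the neighbouring AT3G44870 by 11 bases on the same strand, and a read there could be counted for either.

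MES16 removes a methyl group from the products after ring opening, and CYP89A9 takes away their formyl group. MES16 stood at 40.3 and 44.9 CPM in RanG22V D3, at 309 and 348 CPM in RanG22V D0, at 4.87 and 2.13 CPM in RanT27N D3, at 10.7 and 5.05 CPM in RanT27N D0, and at 4.34 and 3.30 CPM in Col D0. Both pairs labelled RanG22V were separated from all other libraries and from each other. MES16 had the largest called increase of any member, 85.7-fold in RanG22V D0 over Col D0 (log2 fold change 6.42 ± 0.56, adjusted p = 0.000209). CYP89A9 stood at 845 and 739.7 CPM in RanG22V D3, at 836 and 973 CPM in RanG22V D0, at 38.5 and 112 CPM in RanT27N D3, at 55.7 and 145 CPM in RanT27N D0, and at 28.7 and 67.75 CPM in Col D0. It was the one member among the 8 whose 2 pairs labelled RanG22V overlapped.

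CLH1 is a chlorophyllase that is induced by jasmonate, removes phytol from chlorophyll in the test tube and is not required for breakdown in senescing Arabidopsis leaves. CLH1 stood at 29.3 and 15.2 CPM in RanG22V D3, at 3.47 and 6.56 CPM in RanG22V D0, at 1082 and 393 CPM in RanT27N D3, at 404 and 297 CPM in RanT27N D0, and at 1466 and 129.5 CPM in Col D0. CLH1 was low in the pairs labelled RanG22V, where 8 of the members were high, and the 2 Col D0 libraries differed by more than those of any other pair. Leaves labelled RanG22V D0 had a 159-fold lower level than Col D0 leaves (log2 fold change -7.31 ± 1.20, adjusted p = 0.00279). This size rests on the Col D0 libraries: the log2 fold change was -4.70 without the first and -8.27 without the second, and was called in both.

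At D0, the leaves labelled RanG22V differed from Col leaves in 7 members that rose (NYE1, NYE2, NYC1, PPH, PAO, MES16 and CYP89A9) and 1 that fell (CLH1). Over all genes tested, 23.2% were called in this comparison, and the median log2 fold change of the 10 members was 3.05 beside -0.00 over all genes. By the file headers the comparison sets darkened RanG22V leaves against undarkened Col leaves, so that line and darkness both differ. PPH rose by a log2 fold change of 2.16 ± 0.46 (adjusted p = 0.00906), PAO by 1.95 ± 0.54 (adjusted p = 0.0297) and CYP89A9 by 4.23 ± 0.71 (adjusted p = 0.00309). The log2 fold change of NOL was 1.87 ± 0.67 (adjusted p = 0.0739) and that of HCAR -0.32 ± 0.37 (adjusted p = 0.585). The PAO call was lost without the first Col D0 library or without either library labelled RanG22V D0, with adjusted p up to 0.122. On the log2 scale NYC1 stood at 3.16 without the first Col D0 library and at 5.57 without the second. Leaving out the second Col D0 library also gave 2.57 for PAO, 4.90 for CYP89A9 and 0.09 for HCAR.

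Between the lines at D0, the leaves labelled RanG22V had higher levels of 8 members than the leaves labelled RanT27N, and a lower level of CLH1. The share called over all genes was 17.6%, and the median log2 fold change was 3.02 over the members and -0.07 over all genes. By the file headers the same libraries are RanG22V leaves after 3 days in darkness and before it. This comparison shares the pair labelled RanG22V D0 with the one against Col. MES16 rose by a log2 fold change of 5.38 ± 0.53 (adjusted p = 0.000489), NYC1 by 5.02 ± 0.92 (adjusted p = 0.00601), NYE2 by 4.34 ± 0.53 (adjusted p = 0.00107) and NYE1 by 3.46 ± 0.39 (adjusted p = 0.00082). CYP89A9, NOL, PAO and PPH rose by 2.62 to 3.17 on the same scale. For CLH1 the log2 fold change was -6.13 ± 1.14 (adjusted p = 0.00627). HCAR had 0.41 ± 0.37 (adjusted p = 0.491). Without the first library labelled RanT27N D0 the number of members called was 6 in place of 9, with NOL, PAO and CYP89A9 lost. NOL was also lost without either library labelled RanG22V D0, and CLH1 without the first of them. Without the second library labelled RanT27N D0 the log2 fold changes were larger, at 5.64 for NYC1, 5.20 for NYE2, 4.51 for NOL, 4.02 for CYP89A9 and 3.25 for PPH. Without the first they were 5.99 for MES16 and 2.1 for NOL.

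**Figure D2:**
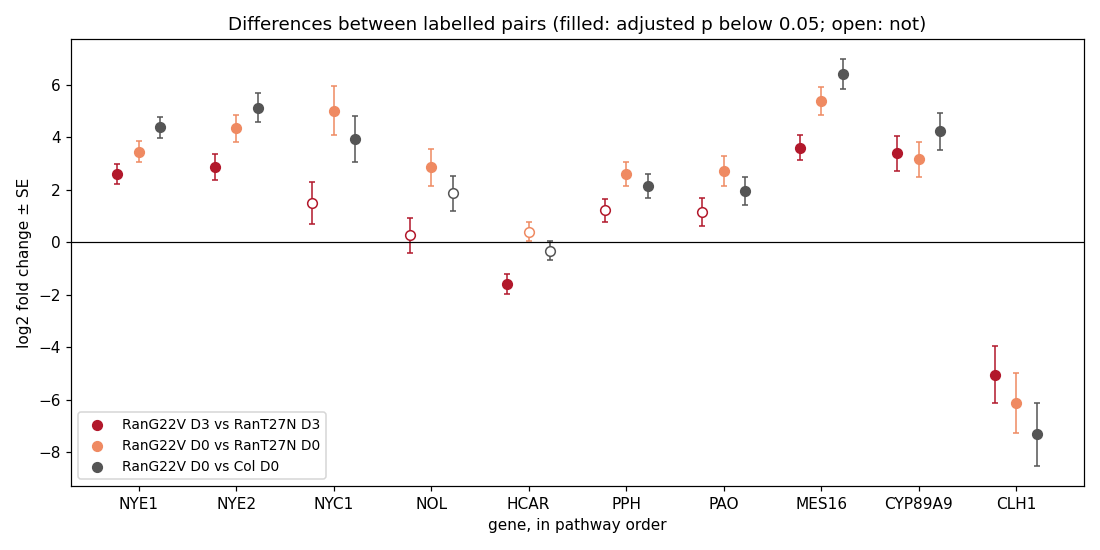
Log2 fold change (vertical axis) of the 10 genes in pathway order for RanG22V D3 over RanT27N D3, RanG22V D0 over RanT27N D0 and RanG22V D0 over Col D0. Bars are standard errors, and filled points have an adjusted p below 0.05. The MES16 points are the highest in each comparison, from 3.61 to 6.42, and the CLH1 points the lowest, from -7.31 to -5.05.

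After 3 days of darkness by the labels, leaves labelled RanG22V had higher levels of NYE1, NYE2, MES16 and CYP89A9 than leaves labelled RanT27N, and lower levels of HCAR and CLH1. Of all genes, 10.8% were called, and the median log2 fold change was 1.36 over the members and 0.01 over all genes. By the file headers these are RanT27N leaves after darkness and before it. MES16 rose by a log2 fold change of 3.61 ± 0.49 (adjusted p = 0.00403), CYP89A9 by 3.39 ± 0.68 (adjusted p = 0.0154), NYE2 by 2.87 ± 0.50 (adjusted p = 0.00910) and NYE1 by 2.62 ± 0.38 (adjusted p = 0.00489). HCAR fell, with a log2 fold change of -1.58 ± 0.39 (adjusted p = 0.0324), as did CLH1, with -5.05 ± 1.08 (adjusted p = 0.0195). NYC1 had 1.50 ± 0.80 (adjusted p = 0.257), PPH 1.22 ± 0.44 (adjusted p = 0.111), PAO 1.17 ± 0.53 (adjusted p = 0.190) and NOL 0.27 ± 0.66 (adjusted p = 0.837). The number of members called was 2 without the first library labelled RanT27N D3, and 3 without either library labelled RanG22V D3. NYE1 and MES16 kept their calls in all of these fits, while HCAR lost its call without any 1 of the 4 libraries compared or without the first labelled RanG22V D0. On the log2 scale MES16 was at 4.34 and CLH1 at -4.12 without the first library labelled RanT27N D3, and CYP89A9 was at 4.34 without the second.

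Averaged over both labelled days, 8 members were higher in leaves labelled RanG22V than in leaves labelled RanT27N, and CLH1 was lower. The share called over all genes was 27.6%, and by the headers this is darkened against undarkened leaves of both lines. The largest rise was that of MES16, 22.6-fold (log2 fold change 4.50 ± 0.36, adjusted p = 9.47e-05), and 354 of the 21475 genes tested rose by more. NYE2 rose 12.2-fold, CYP89A9 9.72-fold, NYC1 9.59-fold and NYE1 8.21-fold. PAO, PPH and NOL rose 3.85-fold, 3.78-fold and 2.97-fold. CLH1 fell 48.2-fold, and 301 genes fell by more. For HCAR it was a log2 value of -0.58 ± 0.27 (adjusted p = 0.135). The NOL call was lost, with adjusted p up to 0.108, on leaving out any library compared other than the second labelled RanT27N D0, without which its log2 fold change was 2.39.

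**Figure D3:**
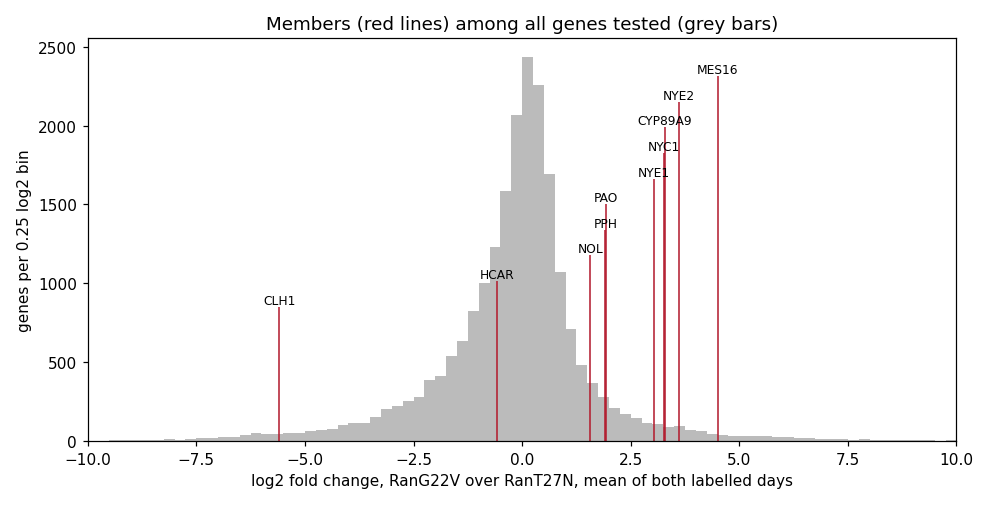
Log2 fold change of RanG22V over RanT27N, mean of both labelled days (horizontal axis), for all 21475 genes tested (grey bars, genes per bin) and the 10 members (red lines, whose heights only separate the names). HCAR lies in the central peak, and NOL, PPH and PAO lie on its right flank, at 1.57, 1.92 and 1.94. The other members lie further out, MES16 at 4.50 and CLH1 at -5.59. Genes beyond the ends of the axis are not drawn.

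Within the leaves labelled RanG22V, NYE1 and MES16 were lower at D3 than at D0, and the other 8 members were not called. The share called over all genes was 3.94%, and the median log2 fold change was -1.32 over the members and -0.02 over all genes. By the headers this sets the RanT27N line against the RanG22V line, both after darkness. NYE1 fell with a log2 fold change of -1.98 ± 0.37, or 3.94-fold lower (adjusted p = 0.0230), and MES16 with -2.95 ± 0.47, or 7.71-fold lower (adjusted p = 0.0144). NYC1 had -2.92 ± 0.84 (adjusted p = 0.0856), NYE2 -1.60 ± 0.47 (adjusted p = 0.0923) and HCAR -1.52 ± 0.39 (adjusted p = 0.0618). NOL, PPH and PAO had -1.12 to -0.94, CYP89A9 -0.19 ± 0.62 and CLH1 2.15 ± 0.96, the one positive value. Both calls were lost without any 1 of the 4 libraries compared, and 4 members were called without either Col D0 library. DESeq2 called 5 members in this comparison, and 6 members had an unadjusted p below 0.05.

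Within the leaves labelled RanT27N, edgeR called 0 of the 10 members between D3 and D0, where 0.345% of all genes were called. By the headers this compares the RanT27N line with the RanG22V line before darkness. An unadjusted p below 0.05 was found for 2 members, and DESeq2 called 0. The nearest to a call was NYE1, with a log2 fold change of -1.14 ± 0.36 (adjusted p = 0.331). Likewise edgeR called 0 members between the leaves labelled RanT27N D0 and Col D0, where 0.247% of all genes were called, with 2 members at an unadjusted p below 0.05 and 0 called by DESeq2. By the headers that comparison is the RanG22V line against Col without darkness. Its log2 fold changes ran from -1.19 ± 0.92 for CLH1 to 1.06 ± 0.63 for CYP89A9. The CLH1 value was 1.46 without the first Col D0 library and -2.11 without the second.

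The change from D0 to D3 was compared between the leaves labelled RanG22V and those labelled RanT27N as an interaction, which edgeR called for 0 of the 10 members and for 0.210% of all genes. By the headers it is the same test with its sign turned, that is, the response to darkness compared between the lines. NYC1 had an interaction of -3.52 ± 1.13 on the log2 scale (adjusted p = 0.255), NOL of -2.59 ± 0.94 (adjusted p = 0.308), HCAR of -1.99 ± 0.54 (adjusted p = 0.186) and MES16 of -1.78 ± 0.64 (adjusted p = 0.300). An unadjusted p below 0.05 was found for 5 members. DESeq2 called 2 of them, NYC1 and HCAR. By edgeR, differences between the labelled lines on 1 day and not on the other are therefore not shown to differ between the days. For NYC1 and HCAR the 2 tools disagreed.

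A list of 13 other genes covers chlorophyll breakdown, phytol recycling and pigment export. It also holds CAO, which makes chlorophyll b and was added after its values were seen. Among the 13, the phytyl ester synthases PES1 and PES2 and the tocopherol gene VTE2 rose in leaves labelled RanG22V D0 compared with Col D0. VTE1 and ACD2 fell and 8 were not called. PES1 and PES2 bind freed phytol to fatty acids. PES1 stood at 118.6 and 149 CPM in RanG22V D3, at 426 and 737 CPM in RanG22V D0, at 12.1 and 20.1 CPM in RanT27N D3, at 7.67 and 14.05 CPM in RanT27N D0, and at 29.2 and 10.4 CPM in Col D0. Its log2 fold change in RanG22V D0 over Col D0 was 4.87 ± 0.63 (adjusted p = 0.00103), against 2.88 ± 0.50 for PES2 (adjusted p = 0.00373). VTE2, which joins phytol to the head group of tocopherol, had 2.63 ± 0.40 (adjusted p = 0.00193). VTE1, the tocopherol cyclase, had -2.47 ± 0.33 (adjusted p = 0.00111). ACD2, the reductase that acts on the product of PAO, had -1.89 ± 0.39 (adjusted p = 0.00780) and so fell where PAO rose. The list median was 0.30, and the 5 called of 13 stand beside 23.2% called over all genes.

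Between the leaves labelled RanG22V D0 and RanT27N D0, 3 genes of this list rose (PES1, PES2 and VTE2) and 3 fell (VTE1, ACD2 and CLH2), where 17.6% of all genes were called. CLH2 encodes the second chlorophyllase, and its log2 fold change was -2.88 ± 0.80 (adjusted p = 0.0349). At D3, PES1, PES2 and VTE2 rose and VTE1 fell in the leaves labelled RanG22V compared with those labelled RanT27N, where 10.8% of all genes were called. Between D3 and D0 in the leaves labelled RanG22V, edgeR called 0 of the 13 and DESeq2 1, with 4 at an unadjusted p below 0.05. In the leaves labelled RanT27N both tools called 0, with 1 at an unadjusted p below 0.05. For RanT27N D0 against Col D0 edgeR called 0 and DESeq2 1, with 1 at an unadjusted p below 0.05, and for the interaction edgeR called 0 and DESeq2 1, with 2 at that p.

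A list of 25 transcription factor genes was drawn up for reported action on promoters of breakdown genes, which was not checked for each factor. Of the 25, 8 rose and 1 fell in leaves labelled RanG22V D0 compared with Col D0, where 23.2% of all genes were called. On the log2 scale WRKY75 rose by 4.90 ± 0.57 (adjusted p = 0.000668), VNI2 by 2.82 ± 0.48 (adjusted p = 0.00344), ANAC019 by 2.07 ± 0.41 (adjusted p = 0.00673), ANAC046 by 2.65 ± 0.56 (adjusted p = 0.00867) and ORE1 by 5.43 ± 1.29 (adjusted p = 0.0151). ORE1 is a NAC activator of leaf senescence, and it stood at 160.4 and 197.5 CPM in RanG22V D3, at 478 and 506 CPM in RanG22V D0, at 2.35 and 21.5 CPM in RanT27N D3, at 7.30 and 43.6 CPM in RanT27N D0, and at 3.09 and 19.75 CPM in Col D0. Its 2 libraries in each of the 3 low pairs were far apart. MYC2, a bHLH regulator of jasmonate responses, fell with a log2 fold change of -3.18 ± 0.70 (adjusted p = 0.0110). It stood at 163.8 and 167 CPM in RanG22V D3, at 162.5 and 69.6 CPM in RanG22V D0, at 1384 and 1135 CPM in RanT27N D3, at 812 and 263 CPM in RanT27N D0, and at 1542 and 562 CPM in Col D0. The pairs with little MYC2 were those with little CLH1.

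At D0, 8 of the 25 rose and 1 fell in the leaves labelled RanG22V compared with those labelled RanT27N, where 17.6% of all genes were called. At D3, 3 rose and 1 fell, a share near the 10.8% called over all genes. At D3 the ones that rose were VNI2 (log2 fold change 1.96 ± 0.47, adjusted p = 0.0303), WRKY75 (2.37 ± 0.53, adjusted p = 0.0239) and MYC4 (1.75 ± 0.40, adjusted p = 0.0257), and MYC2 fell. Within the leaves labelled RanG22V, D3 compared with D0, WRKY75 (-2.95 ± 0.52, adjusted p = 0.0189) and ANAC019 (-1.82 ± 0.41, adjusted p = 0.0415) fell. GLK1, an activator of chloroplast genes, rose (1.34 ± 0.26, adjusted p = 0.0277), where 3.94% of all genes were called. By the headers this sets the RanT27N line against the RanG22V line, both after darkness. Within the leaves labelled RanT27N, D3 compared with D0, WRKY75 fell (-3.34 ± 0.55, adjusted p = 0.0469), where 0.345% of all genes were called. With only the libraries compared, 0 genes were called there, so this call was lost. By the headers it is the RanT27N line against the RanG22V line before darkness. In the leaves labelled RanT27N, WRKY75 stood at 1.75 and 1.51 CPM at D3 and at 12.7 and 20.5 CPM at D0.

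**Figure D4:**
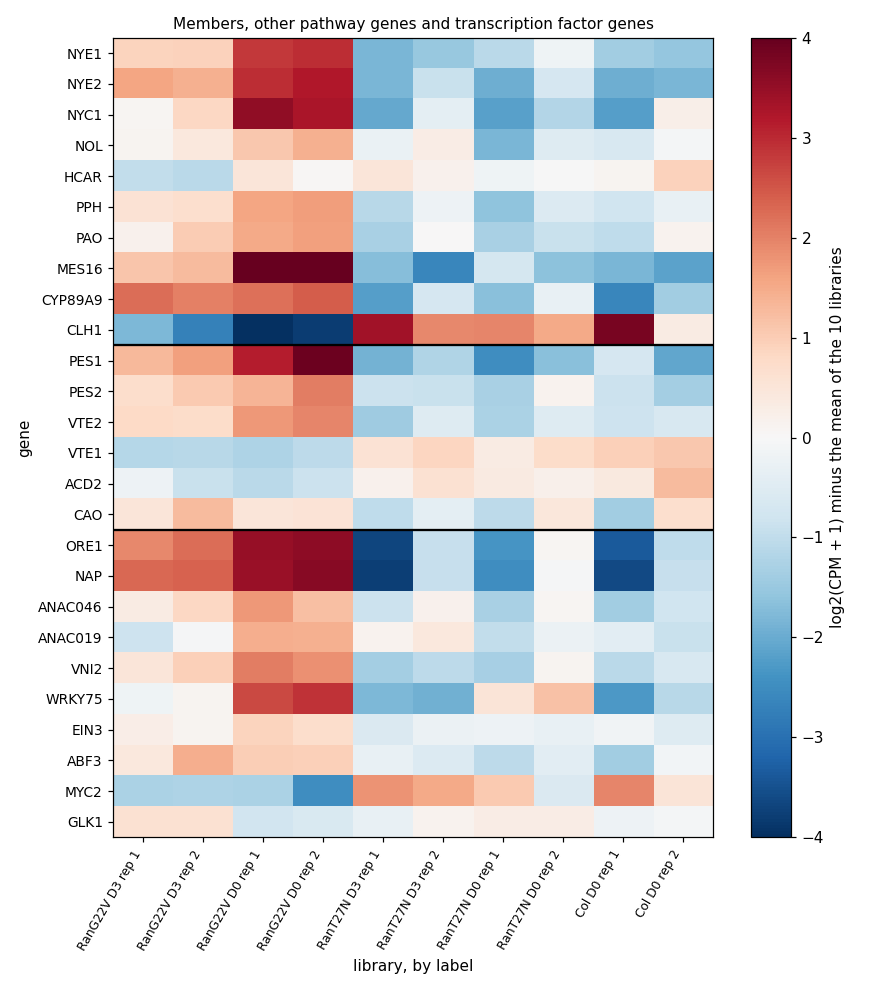
Log2(CPM + 1) of the 10 members (top), other genes of the pathway (middle) and transcription factor genes (bottom) in the 10 libraries, each minus its mean over the libraries; the colour scale ends at 4 and -4, and larger values take the end colour. The libraries labelled RanG22V D0 are red for most members, for PES1 and for ORE1, and blue for CLH1 and MYC2.

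The genes whose levels ran most like those of 6 members were found by the Pearson correlation of log2 CPM over the 10 libraries, among 9909 genes with a mean of at least 10 CPM. The libraries fall mainly into the pairs labelled RanG22V and the rest, so the points behind each value share that split, and the values are descriptions with no test. For NYE1 the closest were the nitrate transporter gene NRT1.5 (r = 0.992), CSLG2 (r = 0.989) and AT1G02816 (r = 0.988). For NYC1 they were AT1G07040 (r = 0.989), PEX11E, a factor of peroxisome division (r = 0.988), and AT1G21400 (r = 0.988). PPH was most like PCAP1 (r = 0.995), NRPB4 (r = 0.990) and AT1G55960 (r = 0.990). MES16 was most like AT4G37520 (r = 0.991), the calcium pump gene ECA1 (r = 0.989) and AT5G67490 (r = 0.986). PAO reached lower values, with AT1G60160 at 0.977, SAC8 at 0.976 and AT2G20920 at 0.976. For CLH1 they were CYP79B3, an enzyme of indole glucosinolate synthesis (r = 0.993), AT1G11670 (r = 0.992) and SPL4 (r = 0.990).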

How the data were processed

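The deposited files hold whole-number read counts for each gene, with a file for every library. The submitters' processing notes name Bowtie2, edgeR and TAIR10. How reads were counted, and whether by strand, is not stated by the sources used, and per the labels' protocols the libraries came from a LEXOGEN Quant-Seq kit. Rows carry names; 32558 of 33028 (98.6%) were paired with a locus through the TAIR10.1 gene table, 429 share a name with another row, and 0 are empty. Listed genes whose name is neither symbol nor synonym of their locus in that table (SGRL, VTE6, CLD1, BCM1, BCM2), or whose file name is shared (ORS1, ANAC055), were dropped.

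Genes were kept by filterByExpr (21475), scaled by TMM and fitted with edgeR 4.0.16 (R 4.3.3) as 5 group means over 10 libraries, with the quasi-likelihood test and Benjamini-Hochberg adjustment over all genes (biological coefficient of variation 45.0%). The SE is the log2 fold change over the root of the F statistic. The method was tested on simulated data. The named genes are the 10 members, up to 6 called genes of each list per comparison by smallest adjusted p, and the 3 genes most like each of 6 members; CAO was added after its values were seen. Members and lists were chosen with earlier results of these data known. No group held a library deposited in duplicate, since its counts lay further apart than counting error (chi-square per gene 32.04 to 236.2). Alternatives were DESeq2 1.42.0, its size factors, no filter, a stricter filter, the replicate block, the compared libraries alone, removal of rRNA rows, and leaving out each library.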

Additional observations from a re-analysis of the deposited data

How the results depend on the processing

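Of 34 member calls, 22 were kept under all 17 alternatives, 12 were lost under at least 1, and 0 changed direction. Genes called with no filter on low counts were 563 for RanT27N D3 vs RanT27N D0, 2107 for RanG22V D3 vs RanG22V D0, 391 for RanT27N D0 vs Col D0, 3709 for RanG22V D3 vs RanT27N D3 and 568 for the interaction. DESeq2 called 549, 2480, 390, 4033 and 683 for the same comparisons. With only the libraries compared the counts were 0 for RanT27N D3 vs RanT27N D0, 3607 for RanG22V D3 vs RanG22V D0, 0 for RanT27N D0 vs Col D0 and 109 for the interaction. Members called for RanG22V D3 vs RanG22V D0 were 6 with no filter, 5 by DESeq2 and 7 with only the libraries compared, and for the interaction 1 with no filter and 2 by DESeq2. The cause was not tested.

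The file headers number the libraries of each group as sets, as the titles do, and neither says what a number shares. Correlations of the deviations of same-numbered libraries ran from -0.01 to 0.31 over 10 pairs of groups. They exceeded 0.1 in 3: 0.19 for RanT27N D3 and RanT27N D0, 0.31 for RanT27N D3 and Col D0, and 0.12 for RanT27N D0 and Col D0. With the replicate number as a block, 83 genes and 0 members were called for the interaction, 3 members for RanG22V D3 vs RanG22V D0, 9 for RanG22V D0 vs Col D0 and 8 for RanG22V D3 vs RanT27N D3; the other member counts were unchanged.

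Leaving out 1 library gave 0 to 180 genes called for RanT27N D3 vs RanT27N D0, 27 to 1464 for RanG22V D3 vs RanG22V D0, 0 to 46 for RanT27N D0 vs Col D0, 2384 to 4899 for RanG22V D0 vs Col D0, 1641 to 4658 for RanG22V D0 vs RanT27N D0, 486 to 3191 for RanG22V D3 vs RanT27N D3, 4104 to 6665 for both days and 1 to 135 for the interaction. Members called were 0 to 4 for RanG22V D3 vs RanG22V D0, 7 to 9 for RanG22V D0 vs Col D0, 6 to 9 for RanG22V D0 vs RanT27N D0, 2 to 6 for RanG22V D3 vs RanT27N D3, and 8 to 9 for both days. Where 1 library was left out, its partner is assumed to vary like the other groups. Log2 fold changes that were not called changed sign when 1 library was left out. For RanT27N D3 vs RanT27N D0 these ran from -0.67 to 0.72 (NYE2), -0.42 to 1.21 (NYC1), -0.10 to 1.03 (PPH), -0.19 to 1.15 (PAO) and -1.34 to 0.43 (CYP89A9). For RanT27N D0 vs Col D0 they ran from -0.07 to 1.3 (NYE2), -1.83 to 0.59 (NYC1) and -2.11 to 1.46 (CLH1), for RanG22V D0 vs Col D0 from -0.69 to 0.09 (HCAR), and for the interaction from -0.62 to 1.20 (CYP89A9).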

Other observations

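CAO, which makes chlorophyll b and so supplies the substrate of NYC1 and NOL, had 10.7 and 19.1 CPM in the pair labelled RanG22V D3, 10.8 and 11.15 CPM in RanG22V D0, 3.13 and 5.38 CPM in RanT27N D3, 3.05 and 10.6 CPM in RanT27N D0, and 2.20 and 12.3 CPM in Col D0. It was not called in any of the 8 comparisons. How often the second library exceeded the first was not counted over all genes. Among the 10 members, the second library was higher for 6 in the pair labelled RanG22V D3 and for 8 in RanG22V D0. It was higher for 7 in RanT27N D3, 8 in RanT27N D0 and 7 in Col D0. The last 3 pairs, which are day 0 by the file headers, are those whose same-numbered libraries deviated together (r = 0.12 to 0.31), and NYC1 was 3.17, 2.07 and 5.56 times higher in their second library than in their first. In the pairs labelled RanT27N and in Col D0, members such as NYC1 and PAO differed between the 2 libraries by more than in the pair labelled RanG22V D0. NYE2, HCAR and CLH1 did not do so in all of these pairs. HCAR differed 1.374-fold in RanG22V D0 and 1.156-fold in RanT27N D0, CLH1 1.891-fold and 1.360-fold. NYE2 differed 1.180-fold in RanG22V D0 and 1.108-fold in Col D0.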
